A study of Mus musculus with 40 samples.

Results

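Expression of 38 imprinted mouse genes was followed in embryonic stem (ES) cells that carry a mutant form of the histone methyltransferase GLP and in wild type cells, with and without retinoic acid (RA). The 38 were taken by symbol from the 23228 gene symbols that all 8 RNA files of the series list. The maternal allele is the one known to be expressed for 17 of them and the paternal allele for 21, and they fall into 17 imprinted clusters, 7 of which hold 2 or more of the genes. The known allele is textbook knowledge and for some of the genes holds in certain tissues only. The measured values sum both alleles and do not tell them apart.

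An imprinted gene is expressed from the copy inherited from a fixed parent. Methyl groups placed on DNA in the egg or the sperm mark imprinting control regions, which set the expression of the genes around them, often through a long noncoding RNA or an insulator, and in ES cells the zinc finger protein ZFP57 helps to keep these marks. Many paternally expressed genes, such as Igf2, promote growth of the fetus and placenta, and many maternally expressed ones, such as H19, Igf2r, Grb10, Cdkn1c and Phlda2, restrain it.

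RNA-seq covered 4 groups of 2 libraries: homozygous GLP 3A cells with RA, wild type cells with RA, untreated homozygous GLP 3A cells, and untreated wild type cells, all of a mixed C57BL/6 background. GLP, the product of Ehmt1, methylates lysine 9 of histone H3. RA means 1 uM all-trans RA given as LIF was taken away, so the effects of adding RA and of losing LIF cannot be told apart, and the untreated cells had neither change. All cells had been kept on feeders and then for 2 passages without feeders in 2i medium. This medium holds ES cells in an undifferentiated state. Per the labels of the chromatin samples, which are not analysed here, the mutant allele was made in R1 ES cells and carried through chimeras crossed to C57BL/6 females. The number of ES lines per genotype is not given, so the mutation and the line that carries it cannot be told apart. Nor do the labels say whether replicates were separate cultures, and p-values therefore measure the spread between these libraries.

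Values are RPKM, reads per kilobase of gene scaled to the mapped reads of the library. Levels of different genes can therefore be set side by side. The depth of replicate 1 was 0.963 to 1.24 times, and that of replicate 2 0.437 to 0.575 times, that of wild type untreated replicate 1, as a rough estimate from the smallest values. Ehmt1 had 12.96 and 13.9 RPKM in GLP 3A cells with RA, against 24.4 and 23.5 RPKM in wild type cells with RA. Without RA it had 14.1 and 14.3 RPKM in untreated GLP 3A cells, against 18.4 and 17.6 RPKM in untreated wild type cells. The sum of 8 ES cell markers was 60.6 to 92.5 RPKM in the 4 libraries with RA and 2568 to 2991 RPKM in the 4 untreated libraries. Cyp26a1, which RA induces, had 125 to 218 RPKM with RA and at most 0.612 RPKM without. Of 12 fibroblast markers, the type that leftover feeders would bring, 9 were under 1 RPKM in all 4 untreated libraries and Lum was listed at 0 there.

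In untreated cells of both genotypes the most abundant of the 38 per length were Rian and Meg3, noncoding RNAs of the Dlk1-Dio3 cluster, Gnas, which encodes the stimulatory G protein alpha subunit, the spliceosome component Snrpn, and Phlda2, a restraint on placental growth. Snrpn led in untreated GLP 3A cells with 133 and 135 RPKM, and Rian led in untreated wild type cells with 135 and 135 RPKM. With RA the 5 highest were Gnas, Mest, H19, Peg10 and Rian in both genotypes, with H19 first in GLP 3A cells at 1019 and 828 RPKM and Gnas first in wild type cells at 543 and 564 RPKM. In every library with RA 23 of the 38 reached 10 RPKM, and in every untreated library 13 did. Together the 38 took 0.670% to 0.783% of the RPKM summed over all genes with RA, and 0.102% to 0.110% without. Since these are bulk libraries, a lower value may mean fewer cells of a type or less RNA per cell, and the data do not separate them.

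**Figure D1:**
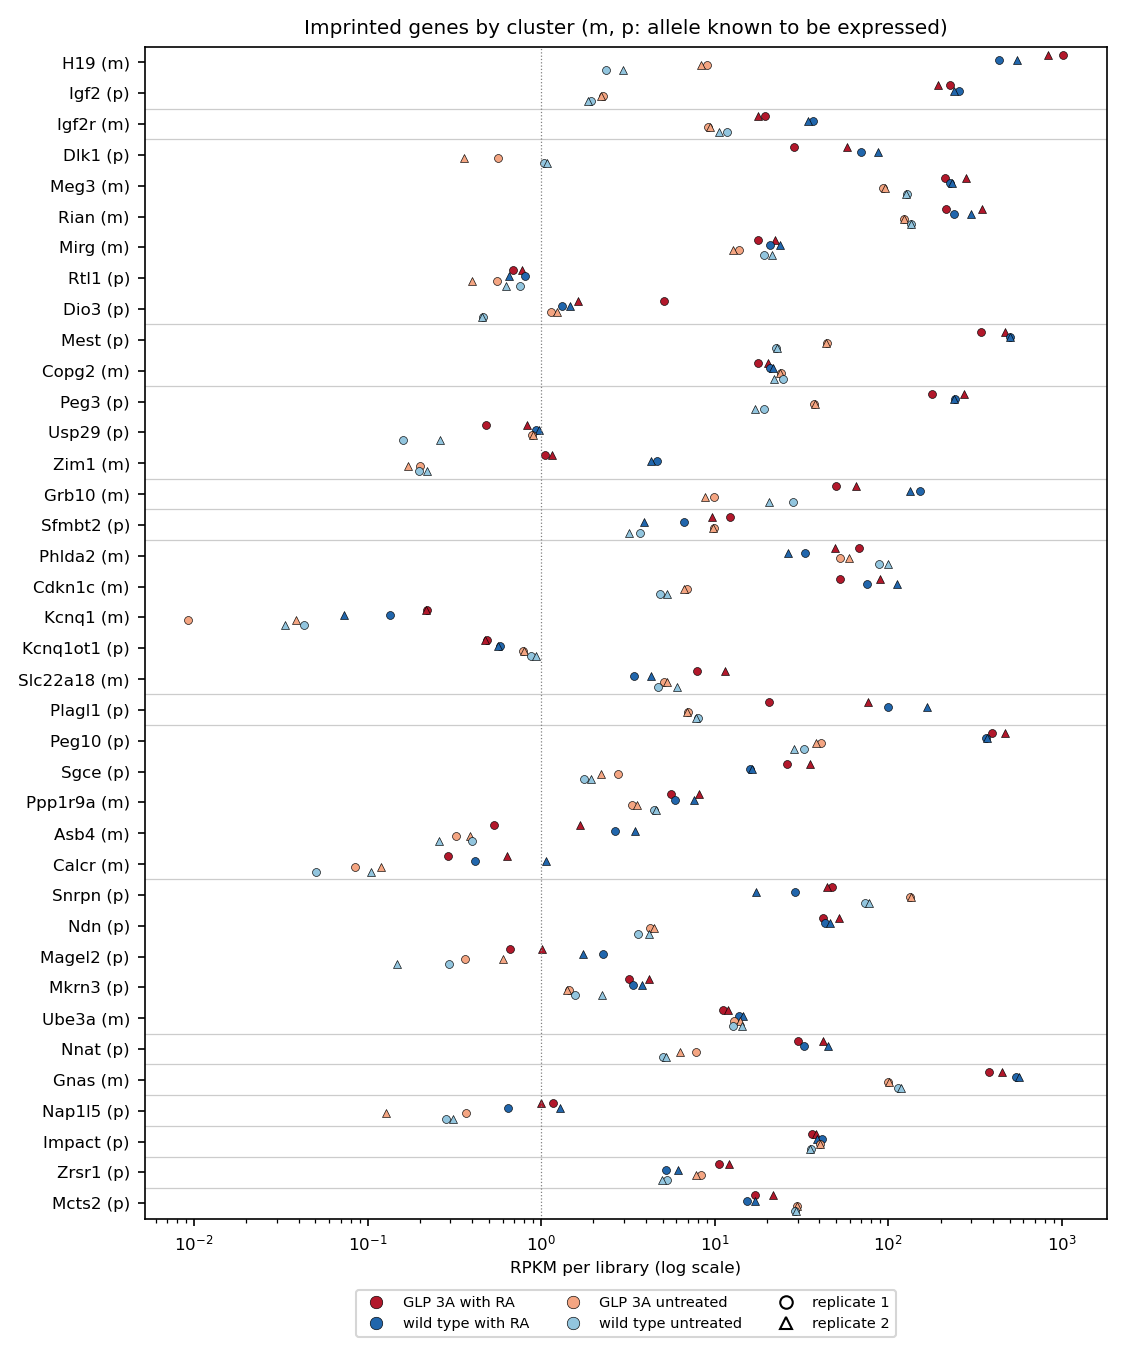
RPKM of the 38 imprinted genes in each of the 8 libraries, on a log axis, with rows grouped by cluster (grey lines) and m or p marking the allele known to be expressed. Most rows show the 4 libraries with RA to the right of the 4 untreated ones, by the widest margin for H19 and Igf2, while Snrpn, Mcts2 and Kcnq1ot1 run the other way.

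A gene was tested where at least 2 libraries reached 1 RPKM, which 33 of the 38 did, 15 maternal and 18 paternal. The other 5 did not reach it: Rtl1, a retrotransposon-derived gene of placenta and muscle (0.401 to 0.803 RPKM over the 8 libraries), the deubiquitinase gene Usp29 (0.159 to 0.968 RPKM), the potassium channel gene Kcnq1 (0.00925 to 0.218 RPKM), its antisense noncoding RNA Kcnq1ot1 (0.472 to 0.937 RPKM) and the calcitonin receptor gene Calcr (0.0503 to 1.07 RPKM). Zim1, Asb4, Magel2 and Nap1l5 passed only through libraries with RA, so a higher value with RA was built into their being tested. With no filter on low values, Kcnq1ot1 fell with RA in both genotypes (-0.27 ± 0.05 and -0.28 ± 0.05 in GLP 3A and wild type cells). In the same fit Usp29 and Calcr rose in wild type cells (0.69 ± 0.11 and 0.67 ± 0.19) and Kcnq1 in GLP 3A cells (0.25 ± 0.03), on the log2(RPKM + 1) scale, which understates the change of low genes.

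Promoter sequence is shown for Mest, Grb10 and Snrpn because each differed between the genotypes and has, in its window, the core of the motif that ZFP57 binds when it is methylated. RefSeq windows of 300 bases (GRCm38.p6, 250 bases before a gene's start and 50 after) were found for 31 of the 38 genes and searched for TGCCGC on both strands. At least 1 window held it for 12 of the 31 genes (38.7%), against 13.1% of 27025 genes, and 13 of the 48 windows of these genes (27.1%) held it, against 11.6% of all 32851 windows. These windows were also richer in CG, with a median of 13.5 CG dinucleotides against 7 over all windows. Among all windows whose CG count lay in the interquartile range of these 48, 15.7% held it. The windows below read 5′ to 3′ along the gene's strand, with the motif in capitals; all 4 copies read GCGGCA, which is TGCCGC on the other strand.
Mest: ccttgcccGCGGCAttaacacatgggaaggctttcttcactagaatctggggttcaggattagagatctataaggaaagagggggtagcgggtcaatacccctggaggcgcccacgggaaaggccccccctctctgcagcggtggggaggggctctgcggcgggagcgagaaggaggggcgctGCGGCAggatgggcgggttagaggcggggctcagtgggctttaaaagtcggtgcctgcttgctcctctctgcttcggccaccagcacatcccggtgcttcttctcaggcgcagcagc
Grb10: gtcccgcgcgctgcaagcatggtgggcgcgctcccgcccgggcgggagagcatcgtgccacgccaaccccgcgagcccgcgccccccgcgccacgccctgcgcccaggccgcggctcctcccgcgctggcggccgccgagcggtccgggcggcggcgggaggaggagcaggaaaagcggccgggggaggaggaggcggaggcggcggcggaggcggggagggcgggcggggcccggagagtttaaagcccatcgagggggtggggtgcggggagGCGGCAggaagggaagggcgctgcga
Snrpn: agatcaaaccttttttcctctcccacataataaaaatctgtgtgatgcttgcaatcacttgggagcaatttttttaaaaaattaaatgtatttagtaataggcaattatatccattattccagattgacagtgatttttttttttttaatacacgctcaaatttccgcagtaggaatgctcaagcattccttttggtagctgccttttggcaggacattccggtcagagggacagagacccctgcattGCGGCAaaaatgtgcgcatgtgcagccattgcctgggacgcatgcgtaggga
The Mest window (chr6:30737800-30738099, plus strand) is 1 of 3 listed for the gene and has 2 copies and 17 CG dinucleotides. The Grb10 window (chr11:12037371-12037670, minus strand) is 1 of 2 and has 1 copy and 45 CG dinucleotides, and the Snrpn window (chr7:60005150-60005449, minus strand) is 1 of 4 and has 1 copy and 7 CG dinucleotides. Zim1 also had 1 copy, and the windows of the other 9 genes that differed between genotypes and had one listed held none, among them Peg3, Zrsr1 and Sfmbt2. Of several windows of a gene, the one with the most copies is shown. Whether a shown window lies in the methylated region of its gene was not checked. A match describes the letters of the window only.

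Most of the tested imprinted genes rose with RA in both genotypes. On log2(RPKM + 1), tested with limma and Benjamini-Hochberg adjustment over 13198 genes at an adjusted p under 0.05, 23 of 33 rose and 3 fell in GLP 3A cells, and 22 rose and 3 fell in wild type cells. Without the 4 genes that passed the filter only through libraries with RA, 21 of 29 rose and 3 fell in GLP 3A cells, with a median log2 difference of 1.14, and 18 rose and 3 fell in wild type cells, with a median of 0.99. Over the 33 the share called was 78.8% in GLP 3A cells, where 70.4% of all tested genes were called, and 75.8% in wild type cells, where 68.5% were, so the counts of calls lie close to the background. Over all tested genes 32.3% rose and 38.1% fell in GLP 3A cells, and 33.7% rose and 34.8% fell in wild type cells. The median log2 difference of the 33 was 0.94 in GLP 3A cells and 1.30 in wild type cells, beside -0.07 in GLP 3A and -0.03 in wild type cells over all tested genes. Both genotypes called 20 genes higher and 2 lower, which 28.3% and 31.1% of all tested genes were, and no gene was called in opposite directions.

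**Figure D2:**
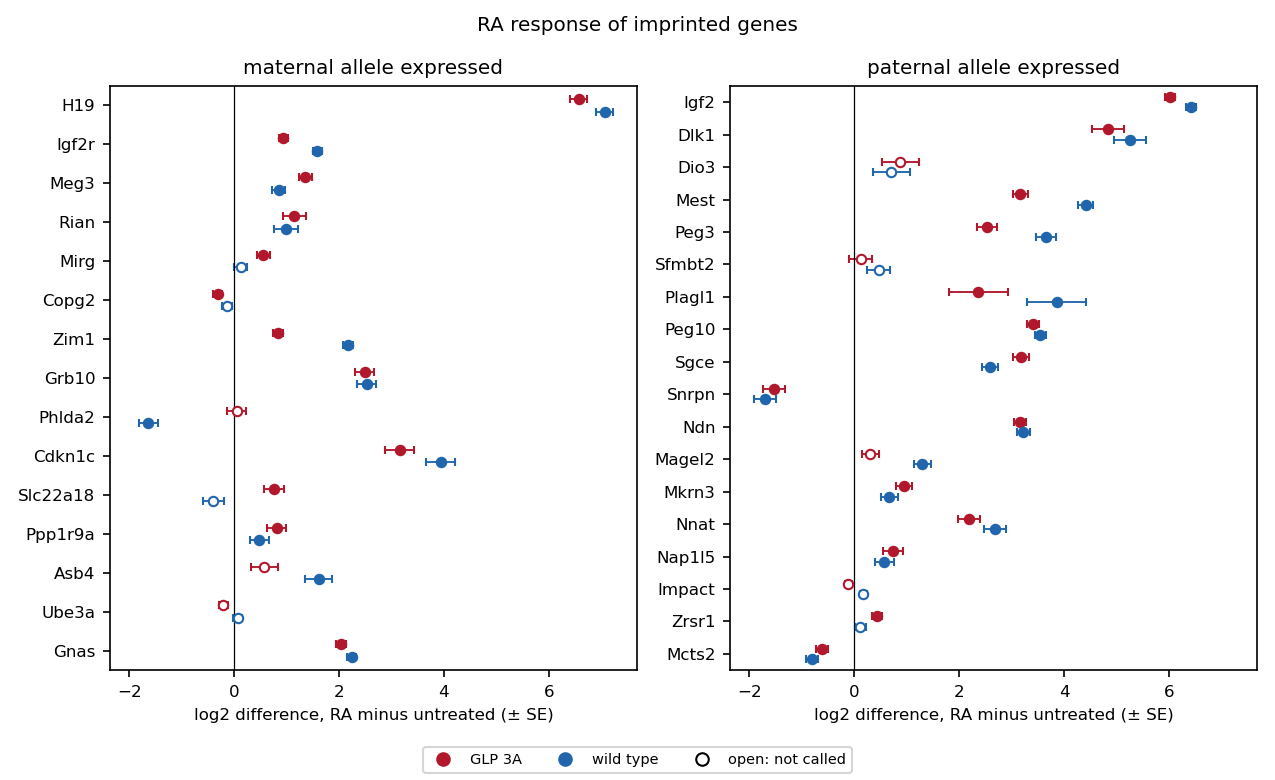
Log2 difference (RA minus untreated) of the 33 tested imprinted genes, ± the standard error of the fit, for GLP 3A cells (red) and wild type cells (blue), in 2 panels by the allele known to be expressed; filled points were called at an adjusted p under 0.05. Points lie to the right of 0 for most genes of both panels, and Phlda2 and Snrpn lie furthest to the left in wild type cells.

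Both genes of the H19-Igf2 cluster rose further than any other of the 33. H19 (chromosome 7, 149761436 to 149764051, build mm9) is a maternally expressed noncoding RNA and had 1019 and 828 RPKM in GLP 3A cells with RA, against 9.01 and 8.36 RPKM in untreated GLP 3A cells. Its wild type values were 434 and 550.4 RPKM with RA, against 2.36 and 2.97 RPKM untreated. None of the libraries with RA came near the untreated ones. Igf2, the paternally expressed growth factor (chromosome 7, 149836672 to 149856261), had 227 and 193 RPKM in GLP 3A cells with RA, against 2.27 and 2.20 RPKM untreated. In wild type cells it had 257 and 238 RPKM with RA, against 1.94 and 1.87 RPKM untreated. Igf2 showed the same wide gap. The log2 differences were 6.57 ± 0.16 and 6.03 ± 0.09 in GLP 3A cells, and 7.07 ± 0.16 and 6.42 ± 0.09 in wild type cells (standard errors of the fit, as everywhere below; adjusted p 4.1e-06 or less).

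Further along the same growth axis, Igf2r, the maternally expressed receptor that clears IGF2 from the cell surface, and Grb10, a maternally expressed adaptor that restrains insulin and IGF receptors, rose less. Igf2r rose by 0.94 ± 0.08 (log2) in GLP 3A cells and 1.59 ± 0.08 in wild type cells, and Grb10 by 2.49 ± 0.18 in GLP 3A and 2.53 ± 0.18 in wild type cells. Plagl1, a paternally expressed zinc finger transcription factor, had 20.6 and 76.6 RPKM in GLP 3A cells with RA, against 6.997 and 6.88 RPKM untreated. Wild type cells had 99.0 and 166 RPKM with RA, against 8.06 and 7.75 RPKM untreated. It was higher with RA in every library, but its 2 GLP 3A libraries with RA stood far apart, and its log2 differences of 2.36 ± 0.57 in GLP 3A and 3.86 ± 0.57 in wild type cells carry the widest errors of the list.

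Among the maternally expressed genes of the Kcnq1 cluster the directions differed. Cdkn1c, which encodes the cell cycle inhibitor p57, had 52.7 and 89.5 RPKM in GLP 3A cells with RA, against 6.91 and 6.69 RPKM untreated. Its wild type values were 75.8 and 112 RPKM with RA, against 4.82 and 5.33 RPKM untreated. It rose by 3.16 ± 0.27 and 3.94 ± 0.27 in GLP 3A and wild type cells with no overlap between treated and untreated libraries. Phlda2 fell in wild type cells (-1.63 ± 0.18, adjusted p = 3.4e-04) and stood at 0.05 ± 0.18 in GLP 3A cells (adjusted p = 0.831). Slc22a18, a transporter gene, rose in GLP 3A cells (0.77 ± 0.19, adjusted p = 0.0114) and stood at -0.39 ± 0.19 in wild type cells (adjusted p = 0.114). Without GLP 3A untreated replicate 1 the rise of Slc22a18 was not called (adjusted p = 0.0552).

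In the Dlk1-Dio3 cluster of chromosome 12, Dlk1, a paternally expressed membrane protein related to Notch ligands, was near 1 RPKM or below without RA. It had 28.5 and 58.0 RPKM in GLP 3A cells with RA, against 0.560 and 0.359 RPKM untreated. In wild type cells it had 69.9 and 87.1 RPKM with RA, against 1.04 and 1.08 RPKM untreated, a log2 rise of 4.84 ± 0.31 in GLP 3A and 5.26 ± 0.31 in wild type cells. The maternally expressed noncoding RNAs of the cluster, already abundant in ES cells, rose less. Meg3 rose by 1.36 in GLP 3A and 0.85 in wild type cells, and Rian, a host of small nucleolar RNAs, by 1.14 in GLP 3A and 0.99 in wild type cells. Mirg, a host of microRNAs, rose in GLP 3A cells (0.56 ± 0.13, adjusted p = 0.00740) and stood at 0.12 ± 0.13 in wild type cells (adjusted p = 0.413). Dio3, a deiodinase that inactivates thyroid hormone, was not called in either genotype; its GLP 3A libraries with RA had 5.10 and 1.63 RPKM, and the other 6 had 0.455 to 1.46 RPKM.

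Mest and Peg3, paternally expressed genes with roles in growth, were expressed without RA and rose strongly with it. Mest, which encodes a putative hydrolase (chromosome 6, 30683505 to 30846760, a span it shares with Copg2), had 341 and 473 RPKM in GLP 3A cells with RA, against 44.3 and 43.6 RPKM untreated. Wild type cells had 502 and 503 RPKM with RA, against 22.5 and 22.8 RPKM untreated. The Mest libraries with RA all exceeded the untreated ones. Peg3, a zinc finger protein gene (chromosome 7, 6658670 to 6683130), had 179 and 273 RPKM in GLP 3A cells with RA, against 37.2 and 37.9 RPKM untreated. Its wild type values were 242 and 239 RPKM with RA, against 19.2 and 17.2 RPKM untreated. Those of Peg3 did so too. Mest rose by 3.16 ± 0.14 in GLP 3A and 4.41 ± 0.14 in wild type cells, and Peg3 by 2.53 ± 0.18 in GLP 3A and 3.66 ± 0.18 in wild type cells. Copg2, a coatomer subunit listed at the same span as Mest, fell in GLP 3A cells (-0.31 ± 0.09, adjusted p = 0.0211; not called without either untreated GLP 3A library or without GLP 3A RA replicate 1, with adjusted p up to 0.0931) and stood at -0.14 ± 0.09 in wild type cells.

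Peg10, a retrotransposon-derived gene needed for the placenta, had 396 and 472 RPKM in GLP 3A cells with RA, against 41.1 and 38.5 RPKM untreated. In wild type cells it had 366 and 371 RPKM with RA, against 32.9 and 28.5 RPKM untreated. Its neighbour Sgce, the epsilon-sarcoglycan gene, rose with it in both genotypes, by 3.17 in GLP 3A and 2.60 in wild type cells, beside 3.41 in GLP 3A and 3.55 in wild type cells for Peg10. Ppp1r9a, which encodes neurabin, rose in both (0.81 in GLP 3A and 0.48 in wild type cells; the wild type call, at adjusted p = 0.0478, was lost without any 1 untreated library or wild type RA replicate 2, with adjusted p up to 0.215). Asb4, an ankyrin repeat protein gene, rose in wild type cells (1.61 ± 0.26). In GLP 3A cells Asb4 stood at 0.58 ± 0.26 (adjusted p = 0.0889).

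The Snrpn-Ube3a cluster of chromosome 7 held genes that moved opposite ways. Ndn, the necdin gene of the MAGE family, had 42.1 and 52.1 RPKM in GLP 3A cells with RA, against 4.22 and 4.44 RPKM untreated. Wild type cells had 43.4 and 46.1 RPKM with RA, against 3.61 and 4.19 RPKM untreated, a rise of 3.17 ± 0.12 in GLP 3A and 3.23 ± 0.12 in wild type cells. The Ndn libraries with and without RA were far apart. Snrpn (chromosome 7, 67127386 to 67285105) had 47.1 and 44.6 RPKM in GLP 3A cells with RA, against 133 and 135 RPKM untreated. Its wild type values were 28.9 and 17.4 RPKM with RA, against 73.6 and 76.9 RPKM untreated, a fall in both genotypes (-1.53 ± 0.21 in GLP 3A and -1.70 ± 0.21 in wild type cells). Snurf, which is read from the same transcript as Snrpn, was listed at 12.4 RPKM in wild type RA replicate 2 and at most 0.392 RPKM elsewhere, and Snrpn was lowest in that library; how reads were split between the pair is not stated. Mkrn3, a ring finger gene, rose in both genotypes (0.95 in GLP 3A and 0.67 in wild type cells; not called in wild type cells without wild type untreated replicate 1, adjusted p = 0.0547), and Magel2, a MAGE family gene, rose in wild type cells (1.30 ± 0.16). The ubiquitin ligase gene Ube3a, at 11.2 to 14.6 RPKM in the 8 libraries, was not called in any comparison.

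Nnat, which encodes the small membrane protein neuronatin, had 30.0 and 42.2 RPKM in GLP 3A cells with RA, against 7.79 and 6.31 RPKM untreated. In wild type cells it had 32.5 and 45.0 RPKM with RA, against 5.01 and 5.22 RPKM untreated, with no overlap between states (2.19 ± 0.21 in GLP 3A and 2.68 ± 0.21 in wild type cells). Gnas rose by 2.04 in GLP 3A and 2.24 in wild type cells. Zim1, a maternally expressed zinc finger gene beside Peg3, rose by 0.83 in GLP 3A and 2.18 in wild type cells. Nap1l5, of the nucleosome assembly protein family, rose by 0.74 in GLP 3A and 0.58 in wild type cells (not called in GLP 3A cells without GLP 3A untreated replicate 2, adjusted p = 0.0687, nor in wild type cells without either untreated wild type library, adjusted p up to 0.113). Mcts2, a retrogene within an intron of H13, fell in both (-0.61 in GLP 3A and -0.81 in wild type cells). Zrsr1, a splicing factor gene within Commd1, rose in GLP 3A cells (0.44 ± 0.10; adjusted p = 0.0537 without GLP 3A untreated replicate 2) and stood at 0.12 ± 0.10 in wild type cells. Sfmbt2, a Polycomb group gene, and Impact, an inhibitor of the kinase GCN2, were called in neither genotype. Impact, Dio3 and Ube3a were called in none of the 5 comparisons made here, as were 19.5% of all tested genes.

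By known allele, 11 of 15 maternally expressed genes rose and 1 fell in GLP 3A cells, and 10 rose and 1 fell in wild type cells. Of 18 paternally expressed genes, 12 rose and 2 fell in each genotype. The median log2 difference was 0.83 and 0.99 for the maternal genes in GLP 3A and wild type cells, and 1.57 and 1.95 for the paternal genes. The difference between the alleles was not tested. For several genes the known allele depends on the tissue, so the split by allele need not hold in these cells. Maternal expression is known in neurons for Ube3a, in extraembryonic tissue for Ppp1r9a and in some tissues for Gnas. It is preferential and tissue-dependent for Copg2, and Grb10 is paternal in neurons. Paternal expression of Sfmbt2 is known in extraembryonic tissue and the early embryo. Summed trophoblast, muscle and mesoderm, endoderm and neural markers were higher with RA as well, and those of fibroblasts were not. The 12 fibroblast markers summed to 223 to 259 RPKM with RA and 203 to 316 RPKM without. Among them Fn1 and Thy1 were lower with RA, and Col1a1, Col1a2 and Col3a1 higher. The 10 trophoblast markers, led by Krt8 and Krt18, summed to 712 to 1510 RPKM with RA and 64.4 to 107 RPKM without. The 10 muscle and mesoderm markers, led by Tagln and Acta2, summed to 1027 to 2134 RPKM with RA and 20.2 to 33.3 RPKM without, and the 10 endoderm markers, led by Sparc, to 595 to 1002 RPKM with RA and 102 to 272 RPKM without. The 9 neural markers in the files summed to 66.5 to 94.9 RPKM with RA and 27.5 to 51.2 RPKM without. Some markers of the trophoblast, neural and mesoderm lists fell while the sums of those lists rose. Tfap2c had 2.39 to 9.21 RPKM with RA and 28.8 to 52.4 RPKM without. Eomes had 0.234 to 0.649 RPKM with RA and 5.26 to 8.21 RPKM without, and Ascl2 0.517 to 3.88 RPKM and 4.49 to 6.74 RPKM. The neural marker Tubb3 had 11.2 to 14.9 RPKM with RA and 23.6 to 44.2 RPKM without. The mesoderm marker T had 0.819 to 1.67 RPKM with RA and 3.46 to 8.11 RPKM without. Afp, Elf5 and Myod1 stayed under 0.25 RPKM in all 8 libraries. The part of such cells in the rise of the imprinted genes was not tested. Leaving out 1 library at a time, 22 of the 26 calls in GLP 3A cells and 22 of the 25 in wild type cells held in each of the 8 fits.

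In untreated cells 5 of 33 imprinted genes were higher and 2 lower in GLP 3A than in wild type cells, a share of 21.2%, where 11.7% of all tested genes were called (7.52% higher and 4.15% lower). Of all genes called, 64.4% were higher in GLP 3A cells, and 54.0% under either of the other scalings tried. H19, Mest, Peg3, Sfmbt2 and Zrsr1 were higher, and Grb10 and Mirg lower. The 4 called genes with paternal expression were all higher, and of the 3 with maternal expression 1 was higher and 2 lower. The median log2 difference of the 33 was 0.03, beside 0.04 over all tested genes. None of the 7 calls held in all 8 fits that left out 1 library. The number of calls over all tested genes changed in these fits as well. Mest, Peg3, Sfmbt2, Zrsr1 and Mirg were lost without any 1 of the 4 untreated libraries, Grb10 without 3 of them (all but wild type untreated replicate 2) and H19 without replicate 1 of either untreated group. The adjusted p was then up to 0.0534 for H19 and 0.201 for Mirg.

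**Figure D3:**
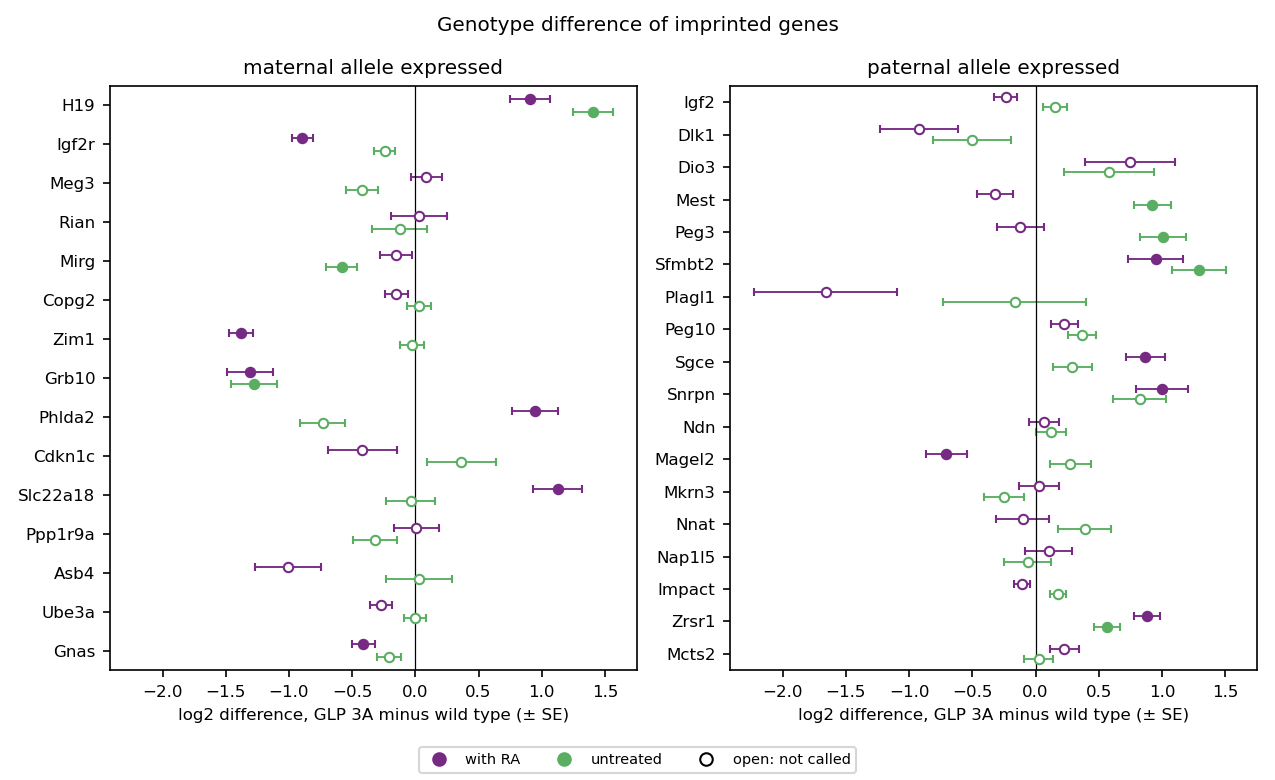
Log2 difference (GLP 3A minus wild type) of the 33 tested imprinted genes, ± the standard error of the fit, with RA (purple) and untreated (green), in 2 panels by the allele known to be expressed; filled points were called at an adjusted p under 0.05. H19, Sfmbt2 and Zrsr1 lie right of 0 and Grb10 left of 0 in both states, whereas Mest and Peg3 lie right of 0 in untreated cells alone.

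Untreated GLP 3A cells had 9.01 and 8.36 RPKM of H19, against 2.36 and 2.97 RPKM in untreated wild type cells. Igf2, from the same cluster, had 2.27 and 2.20 RPKM in untreated GLP 3A cells, against 1.94 and 1.87 RPKM in untreated wild type cells. The H19 libraries of the genotypes were well apart, and those of Igf2 lay close together without overlapping. H19 was higher by 1.41 ± 0.16 (adjusted p = 0.00513), and Igf2 differed by 0.16 ± 0.09 without a call (adjusted p = 0.338). Mir675, a microRNA cut from H19 and listed within its locus, had 20.5 and 9.94 RPKM in untreated GLP 3A cells and was listed at 0 in the other 6 libraries, also in those with RA, where H19 was far higher; such short genes are poorly measured by RPKM.

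Untreated GLP 3A cells had 44.3 and 43.6 RPKM of Mest, against 22.5 and 22.8 RPKM in untreated wild type cells. For Peg3 the values were 37.2 and 37.9 RPKM in untreated GLP 3A cells, against 19.2 and 17.2 RPKM in untreated wild type cells. Both pairs were tight and apart. Mest was higher by 0.92 ± 0.14 (adjusted p = 0.0130) and Peg3 by 1.01 ± 0.18 (adjusted p = 0.0219). Zim1, the other tested gene of the Peg3 cluster, had 0.200 and 0.171 RPKM in untreated GLP 3A cells, against 0.197 and 0.220 RPKM in untreated wild type cells, which overlapped. The antisense RNA Peg3as, listed at the same span as Peg3, so that the split of reads between them is unknown, had 6.19 and 5.73 RPKM in untreated GLP 3A cells, against 2.79 and 1.72 RPKM in untreated wild type cells. Usp29, which shares a promoter region with Peg3, had 0.881 and 0.893 RPKM in untreated GLP 3A cells, against 0.159 and 0.259 RPKM in untreated wild type cells. Usp29 was too low for the main test; in the fit with no filter on low values it was higher by 0.64 ± 0.11 (adjusted p = 0.0263). Copg2, which the files list at the same span as Mest, had 24.1 and 23.7 RPKM in untreated GLP 3A cells, against 24.8 and 22.0 RPKM in untreated wild type cells, and did not differ by the test (0.03 ± 0.09, adjusted p = 0.893).

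Sfmbt2 (chromosome 2, 10292077 to 10516880, which also holds 36 short RNA symbols) had 12.2 and 9.58 RPKM in GLP 3A cells with RA, against 6.61 and 3.93 RPKM in wild type cells with RA. There were 9.93 and 9.76 RPKM in untreated GLP 3A cells, against 3.68 and 3.19 RPKM in untreated wild type cells. All GLP 3A libraries lay above the wild type ones of the same state, and above those of the other. Zrsr1 (chromosome 11, 22799727 to 22882284) had 10.6 and 12.0 RPKM in GLP 3A cells with RA, against 5.26 and 6.11 RPKM in wild type cells with RA. It had 8.37 and 7.82 RPKM in untreated GLP 3A cells, against 5.32 and 4.98 RPKM in untreated wild type cells. Here too the genotypes were apart in both states. Grb10 (chromosome 11, 11830501 to 11937423) had 49.9 and 65.2 RPKM in GLP 3A cells with RA, against 152 and 134 RPKM in wild type cells with RA. Its untreated values were 9.85 and 8.83 RPKM in GLP 3A cells, against 28.1 and 20.5 RPKM in wild type cells. Together with H19 these were the genes called in the same direction in both states, 4 of 33 where 3.3% of all tested genes were. The log2 differences with RA and untreated were 0.95 ± 0.21 and 1.29 ± 0.21 for Sfmbt2, 0.88 ± 0.10 and 0.56 ± 0.10 for Zrsr1, and -1.31 ± 0.18 and -1.28 ± 0.18 for Grb10. Grb10 and Zrsr1 lie on chromosome 11, whose genes had a median log2 difference of 0.24 in both states, on the side of Zrsr1 and opposite to Grb10. Commd1, the gene around Zrsr1, had 61.9 and 60.3 RPKM in GLP 3A cells with RA, against 43.7 and 47.9 RPKM in wild type cells with RA (0.41 ± 0.10, adjusted p = 0.0493), and 0.33 ± 0.10 untreated (adjusted p = 0.0796). Sfmbt2 lies on chromosome 2, as does Ehmt1 itself (24646293 to 24775110). The median there was -0.04 with RA and 0.03 untreated.

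Mirg had 13.7 and 12.7 RPKM in untreated GLP 3A cells, against 19.3 and 21.4 RPKM in untreated wild type cells, a difference of -0.58 ± 0.13 (adjusted p = 0.0362) with no overlap. With RA it had 17.8 and 22.4 RPKM in GLP 3A cells, against 20.9 and 23.7 RPKM in wild type cells, which overlapped. The other maternal RNAs of its cluster, Meg3 and Rian, stood at -0.42 ± 0.13 and -0.12 ± 0.22 without a call. Phlda2 and Snrpn lay at the threshold in untreated cells, and their calls depended on the setting. Phlda2 stood at -0.73 ± 0.18 (adjusted p = 0.05003) and was called with only genes of at least 5 RPKM, with median-of-ratios scaling, with only the 4 untreated libraries and without either GLP 3A RA library (adjusted p of 0.00928 to 0.0485), with adjusted p up to 0.246 without 1 untreated library. Snrpn stood at 0.82 ± 0.21 (adjusted p = 0.0537) and was called with the replicate number as a block (adjusted p = 0.0467), with only the 4 untreated libraries and without either wild type RA library (adjusted p of 0.00201 to 0.00513), with adjusted p up to 0.229 without 1 untreated library.

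Sums of all the marker lists also differed between the untreated genotypes. The 10 endoderm markers summed to 269 and 272 RPKM in untreated GLP 3A cells, against 102 and 103 RPKM in untreated wild type cells, most of it Sparc. The 10 trophoblast markers, led by Tfap2c, summed to 107 and 106 RPKM in untreated GLP 3A cells, against 64.4 and 66.4 RPKM in untreated wild type cells. The 12 fibroblast markers, nearly all Fn1, summed to 203 and 217 RPKM in untreated GLP 3A cells, against 316 and 302 RPKM in untreated wild type cells. The 10 neural markers, 9 of them in the files, summed to 51.2 and 47.6 RPKM in untreated GLP 3A cells, against 28.4 and 27.5 RPKM in untreated wild type cells. The 10 muscle and mesoderm markers summed to 33.3 and 31.7 RPKM in untreated GLP 3A cells, against 20.2 and 21.9 RPKM in untreated wild type cells. None of these sums overlapped between genotypes. In all 4 untreated libraries 6 of the 10 endoderm, 4 of the 10 trophoblast, 5 of the 9 neural and 4 of the 10 muscle and mesoderm markers were under 1 RPKM. Others were expressed, among them Tfap2c at 28.8 to 52.4 RPKM, Eomes at 5.26 to 8.21 RPKM and Ascl2 at 4.49 to 6.74 RPKM. The 8 ES cell markers summed to 2677 and 2568 RPKM in untreated GLP 3A cells, against 2991 and 2989.5 RPKM in untreated wild type cells. Single markers did not all follow the sums of their lists. Sparc, Tfap2c, Nes and Acta2 were higher in untreated GLP 3A cells, and Fn1 and Zfp42 lower, as their sums were. Lama1, Eomes, Sox1 and Des were lower there although their sums were higher. Nanog, Tdgf1 and Thy1 were higher although their sums were lower. The part of these shifts in the calls was not tested.

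With RA the genotypes differed in 12 of 33 imprinted genes, 7 higher and 5 lower in GLP 3A cells, a share of 36.4%, where 10.6% of all tested genes were called (5.3% higher and 5.31% lower). Zim1 and Magel2 are among the 4 genes that passed the filter only through libraries with RA. Without those 4, 7 of 29 were higher and 3 lower, with a median log2 difference of 0.01. Beside H19, Sfmbt2 and Zrsr1, the genes higher in GLP 3A cells were Phlda2, Slc22a18, Sgce and Snrpn, and beside Grb10 the lower ones were Igf2r, Zim1, Magel2 and Gnas. Of the 7 called genes with maternal expression 3 were higher and 4 lower, and of the 5 with paternal expression 4 were higher and 1 lower. The median log2 difference of the 33 was -0.10, beside -0.01 over all tested genes. With RA the trophoblast markers, led by Krt8 and Krt18, summed to 1510.2 and 906 RPKM in GLP 3A cells. Wild type cells had 772 and 712 RPKM, without overlap. The muscle and mesoderm markers, at 2134 and 1381 RPKM in GLP 3A cells, against 1027 and 1441 RPKM in wild type cells, and the endoderm markers, at 631 and 641 RPKM, against 1002 and 595 RPKM in wild type cells, overlapped. The neural markers, at 66.5 and 78.4 RPKM in GLP 3A cells, against 78.8 and 94.9 RPKM in wild type cells, were lower in GLP 3A cells without overlap. So were the fibroblast markers, at 223 and 229 RPKM in GLP 3A cells, against 257 and 259 RPKM in wild type cells. Within both lists the single markers went different ways. Sox1, Pax6, Zic1, Twist1 and Prrx1 were lower in GLP 3A cells with RA, whereas Tubb3, Dcx, Col1a1 and Postn were higher. Fn1, the largest part of the fibroblast sum, overlapped between the genotypes. The ES cell markers, at 92.5 and 66.5 RPKM in GLP 3A cells, against 73.5 and 60.6 RPKM in wild type cells, overlapped. Among them Nanog (13.1 and 6.30 RPKM, against 1.51 and 0.814 RPKM), Esrrb, Tdgf1 and Fgf4 were higher in GLP 3A cells without overlap. Sox2 was lower without overlap (21.4 and 35.4 RPKM, against 38.3 and 47.2 RPKM). The part of such cells in the differences was not tested. In either state or both, 15 of the 33 were called, where 18.7% of all tested genes were.

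H19 had 1019 and 828 RPKM in GLP 3A cells with RA, against 434 and 550.4 RPKM in wild type cells with RA, higher by 0.91 ± 0.16 (adjusted p = 0.0242). Igf2 had 227 and 193 RPKM in GLP 3A cells with RA, against 257 and 238 RPKM in wild type cells with RA, and stood at -0.24 ± 0.09 (adjusted p = 0.155). Igf2r (chromosome 17, 12875271 to 13061009) had 19.6 and 17.8 RPKM in GLP 3A cells with RA, against 36.9 and 34.4 RPKM in wild type cells with RA, a difference of -0.89 ± 0.08 (adjusted p = 0.00563). Untreated, it had 9.18 and 9.41 RPKM in GLP 3A cells, against 11.8 and 10.6 RPKM in wild type cells. The Igf2r libraries with RA were tight and far apart, and the untreated ones were not called (-0.24 ± 0.08, adjusted p = 0.1203). Airn, the noncoding RNA that runs antisense to Igf2r and is listed at the same span, had 6.94 and 9.88 RPKM in GLP 3A cells with RA, against 5.68 and 5.32 RPKM in wild type cells with RA (0.52 ± 0.16, adjusted p = 0.0877), and at most 0.163 RPKM in untreated cells. No source used here says whether strand was used in counting, so reads of this antisense pair may be shared.

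In the Kcnq1 cluster Phlda2 (chromosome 7, 150687452 to 150688429) had 68.0 and 49.2 RPKM in GLP 3A cells with RA, against 32.9 and 26.4 RPKM in wild type cells with RA, and 52.6 and 59.6 RPKM in untreated GLP 3A cells, against 88.0 and 99.7 RPKM in untreated wild type cells. Slc22a18 had 7.92 and 11.5 RPKM in GLP 3A cells with RA, against 3.41 and 4.32 RPKM in wild type cells with RA, and 5.08 and 5.33 RPKM in untreated GLP 3A cells, against 4.73 and 6.06 RPKM in untreated wild type cells. With RA both were higher in GLP 3A cells without overlap, Phlda2 by 0.95 ± 0.18 (adjusted p = 0.0298) and Slc22a18 by 1.13 ± 0.19 (adjusted p = 0.0238). Cdkn1c, the third tested gene of the cluster, stood at -0.42 ± 0.27 (adjusted p = 0.355) with libraries that overlapped. Kcnq1, below the filter, had 0.218 and 0.218 RPKM in GLP 3A cells with RA, against 0.134 and 0.0732 RPKM in wild type cells with RA, and Kcnq1ot1 had 0.489 and 0.472 RPKM in GLP 3A cells with RA, against 0.575 and 0.565 RPKM in wild type cells with RA.

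Zim1 (chromosome 7, 6628153 to 6649143) had 1.06 and 1.16 RPKM in GLP 3A cells with RA, against 4.65 and 4.30 RPKM in wild type cells with RA, a difference of -1.38 ± 0.10 (adjusted p = 0.00215), the largest called difference between genotypes with RA. All 4 untreated libraries had 0.171 to 0.220 RPKM of it. Its neighbour Peg3 had 179 and 273 RPKM in GLP 3A cells with RA, against 242 and 239 RPKM in wild type cells with RA, and did not differ by the test (-0.12 ± 0.18, adjusted p = 0.709). Mest likewise stood at -0.32 ± 0.14 with RA (adjusted p = 0.197), with both GLP 3A libraries below both wild type ones. Mest and Peg3, both higher in untreated GLP 3A cells, were therefore not called with RA.

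Sgce had 26.2 and 35.4 RPKM in GLP 3A cells with RA, against 16.0 and 16.5 RPKM in wild type cells with RA (0.87 ± 0.15, adjusted p = 0.0257), and its divergent neighbour Peg10 stood at 0.23 ± 0.11 (adjusted p = 0.223). Snrpn had 47.1 and 44.6 RPKM in GLP 3A cells with RA, against 28.9 and 17.4 RPKM in wild type cells with RA (1.00 ± 0.21, adjusted p = 0.0355), and the untreated Snrpn values of both genotypes lay in the same order. Without wild type RA replicate 2, the library with the high Snurf value, Snrpn was higher by 0.65 with adjusted p = 0.0299. Magel2 had 0.663 and 1.01 RPKM in GLP 3A cells with RA, against 2.26 and 1.74 RPKM in wild type cells with RA (-0.71 ± 0.16, adjusted p = 0.0448), and Gnas 382 and 452 RPKM in GLP 3A cells with RA, against 543 and 564 RPKM in wild type cells with RA (-0.41 ± 0.09, adjusted p = 0.0421). The genotypes did not overlap with RA for any of the 4 genes with a call. Nor did they for several imprinted genes without a call, Igf2, Dlk1 and Mest among them. The share of all genes without overlap was not counted, so the lack of overlap adds no support to these calls. In untreated cells Sgce had 2.78 and 2.21 RPKM in GLP 3A cells, against 1.76 and 1.94 RPKM in wild type cells, Magel2 0.362 and 0.599 RPKM in GLP 3A cells, against 0.293 and 0.148 RPKM in wild type cells, and Gnas 100.1 and 101 RPKM in GLP 3A cells, against 114 and 118 RPKM in wild type cells, none of them called.

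**Figure D4:**
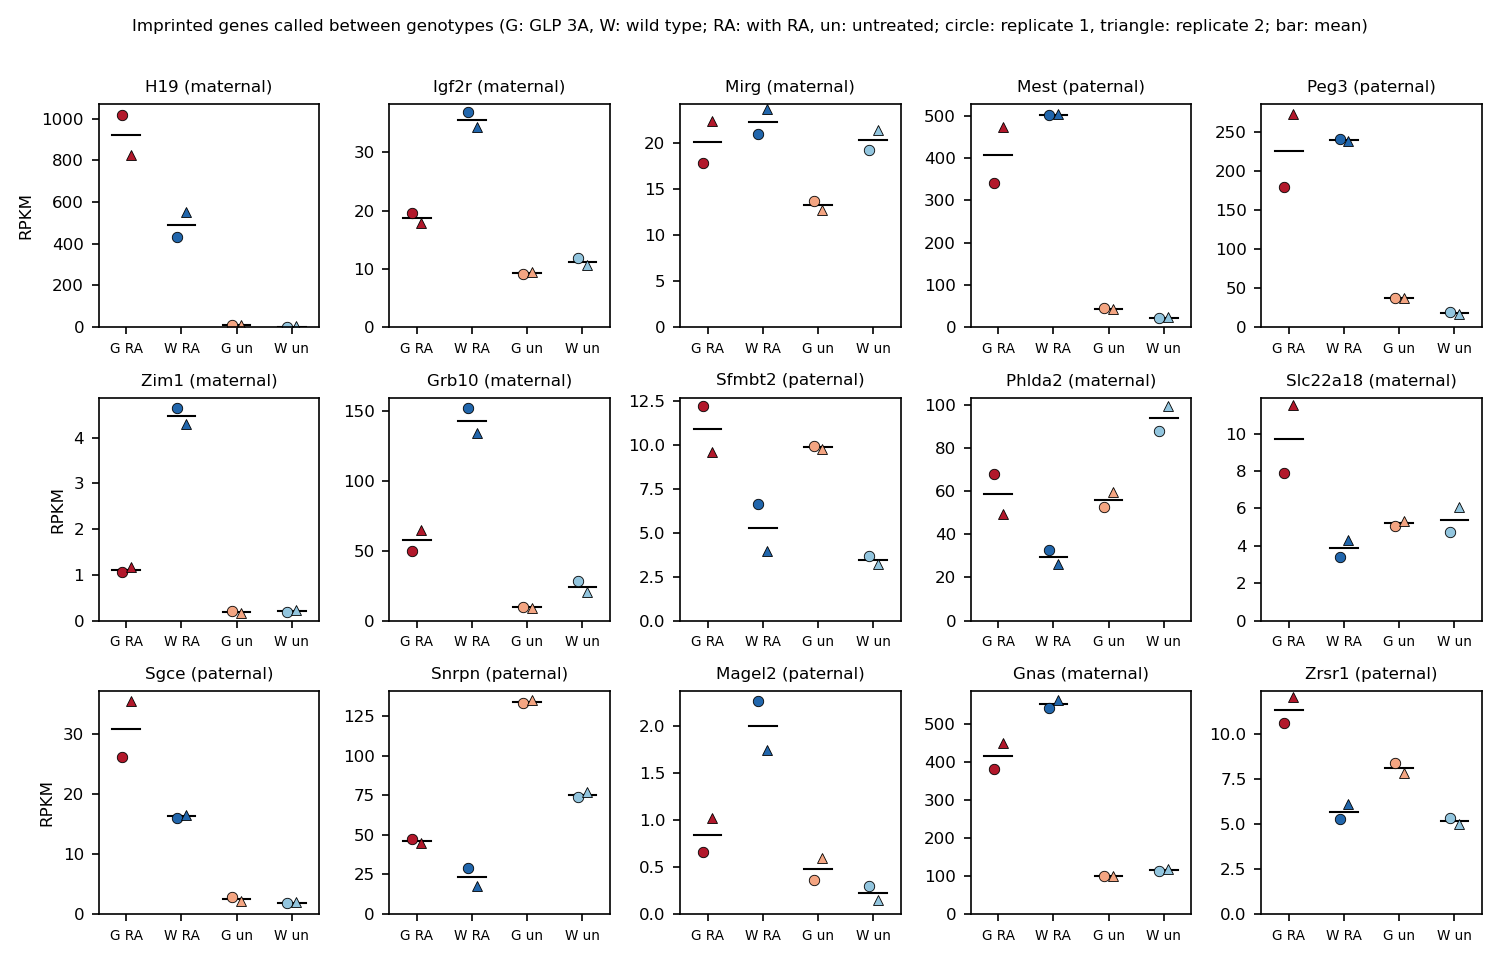
RPKM per library of the 15 imprinted genes called in at least 1 genotype comparison, each on its own axis from 0, with groups in the order GLP 3A with RA, wild type with RA, GLP 3A untreated and wild type untreated; circles are replicate 1, triangles replicate 2 and bars the mean of 2. Zim1, Igf2r and Grb10 are lower in GLP 3A with RA by clear gaps, and Phlda2 is higher in GLP 3A with RA but lower in GLP 3A untreated.

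Igf2r, Zim1 and Zrsr1 were called with RA in each of the 8 fits that left out 1 library, with adjusted p of at most 0.0429. Grb10 was lost without either wild type RA library, and H19, Sfmbt2, Phlda2, Slc22a18, Sgce, Snrpn, Magel2 and Gnas were each lost without any 1 untreated library and without 2 or 3 of those with RA. The adjusted p was then up to 0.0700 for Grb10 and 0.154 for Magel2. The number of calls changed between these fits, over all tested genes as well as among the imprinted ones. The 2 GLP 3A libraries with RA stood apart for several genes: replicate 1 was the lower one for Dlk1, Plagl1, Mest, Peg3 and Cdkn1c and the higher one for Dio3. In wild type cells with RA, replicate 1 was also the lower one for Dlk1, Plagl1 and Cdkn1c. The trophoblast and muscle markers of GLP 3A RA replicate 1 summed to 1510 and 2134 RPKM, against 906 and 1381 RPKM in GLP 3A RA replicate 2. In wild type cells with RA the endoderm markers summed to 1002 RPKM in replicate 1 and 595 RPKM in replicate 2. Without GLP 3A RA replicate 2 the genotype differences (log2) were -2.58 for Plagl1, -1.42 for Dlk1, -0.56 for Mest and -0.42 for Peg3. Without GLP 3A RA replicate 1 they were -0.74, -0.42, -0.09 and 0.18. When only the 4 libraries with RA entered the fit, limma called 0 imprinted genes (13 had an unadjusted p under 0.05). Of all 12438 tested genes it called 24.

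The RA response itself differed between genotypes for 3 of the 33, a share of 9.09%, where 1.8% of all tested genes were called (0.561% higher and 1.24% lower). Without the 4 genes that passed the filter only through libraries with RA, Zim1 among them, 1 of 29 was higher and 1 lower. Mest rose less in GLP 3A cells, by 3.16 against 4.41 in wild type cells, a difference of -1.25 ± 0.20 (adjusted p = 0.0461). Zim1 also rose less, by 0.83 against 2.18, a difference of -1.35 ± 0.14 (adjusted p = 0.0192). Phlda2 fell in wild type cells and not by the test in GLP 3A cells, a difference of 1.68 ± 0.25 (adjusted p = 0.0387). On the log2 scale the Mest levels of the genotypes were closer with RA than without. Their order changed, with GLP 3A above wild type untreated and below it with RA, the latter without a call. The levels of Zim1 met without RA and parted with it, and those of Phlda2 changed order. The median difference of the 33 was -0.18, beside -0.06 over all tested genes. Grb10, lower in GLP 3A cells in both states, differed in response by -0.03 ± 0.26 (adjusted p = 0.959), and Peg3, Magel2, Slc22a18 and Igf2r had differences of -1.13, -0.98, 1.16 and -0.65 that were not called (adjusted p of 0.0558 to 0.0875). All 3 calls were lost without any 1 untreated or wild type RA library (0 calls each by limma, with 7 to 12 of the 33 at an unadjusted p under 0.05 and adjusted p of these 3 genes up to 0.215). Over all tested genes fewer were called in these fits too. Without GLP 3A RA replicate 1 or replicate 2 more imprinted genes were called, and more of all tested genes as well.

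Of 39 other imprinted genes and cluster neighbours, 37 were listed in all files and 28 tested. Some of the 28, Airn among them, reached 1 RPKM only with RA, so a higher value with RA was built into their being tested. With RA 16 of the 28 rose and 3 fell in GLP 3A cells, a share called of 67.9% where 70.4% of all tested genes were called, and 15 rose and 1 fell in wild type cells, 57.1% against 68.5%. Between genotypes 4 were higher and 3 lower in GLP 3A cells with RA (25% against 10.6% of all tested genes). Of these, Ins2 had 7.58 and 2.59 RPKM in GLP 3A cells with RA and was listed at 0 elsewhere. Peg13 reached 1 RPKM only in wild type cells with RA. In untreated cells 3 were higher and 1 lower in GLP 3A cells (14.3%, near the 11.7% of all tested genes). Mir675, 1 of the 3, was above 0 only in untreated GLP 3A cells. A difference was thus built into the testing of Ins2, Peg13 and Mir675. Atp10a, a lipid transporter gene of the Snrpn-Ube3a region, had 3.65 and 3.44 RPKM in untreated GLP 3A cells, against 1.28 and 1.19 RPKM in untreated wild type cells (1.02 ± 0.15, adjusted p = 0.0117). Peg13, a paternally expressed noncoding RNA, had 0.680 and 0.528 RPKM in GLP 3A cells with RA, against 1.95 and 2.43 RPKM in wild type cells with RA (-0.99 ± 0.12, adjusted p = 0.0119).

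Of 12 genes whose products set or keep imprints, 10 fell and 0 rose with RA in GLP 3A cells, where 38.1% of all tested genes fell, and 9 fell and 1 rose in wild type cells, where 34.8% fell. The 1 that rose was Ehmt1 (0.39 ± 0.07). Between genotypes 1 was higher and 1 lower in GLP 3A cells with RA (16.7% called, against 10.6% of all tested genes). The lower one was Ehmt1, the mutated gene itself (-0.79 ± 0.07, adjusted p = 0.00410). In untreated cells 2 were higher and 2 lower in GLP 3A than in wild type (33.3%, against 11.7%). Ehmt1 was again 1 of the 2 lower (-0.32 ± 0.07, adjusted p = 0.0334). These shares therefore include the mutated gene. Dppa3, which protects methylation at some imprinted regions in the early embryo, had 78.9 and 83.8 RPKM in untreated GLP 3A cells, against 19.3 and 19 RPKM in untreated wild type cells (2.03 ± 0.24, adjusted p = 0.00580), and was also higher with RA (1.99 ± 0.24). Dnmt3b, a methyltransferase that adds new DNA methylation, had 120.4 and 112 RPKM in untreated GLP 3A cells, against 52.0 and 47.9 RPKM in untreated wild type cells (1.20 ± 0.15, adjusted p = 0.00733). Zfp57, named here for its motif after its values were seen, had 176 and 168 RPKM in untreated GLP 3A cells, against 263 and 257 RPKM in untreated wild type cells, a difference of -0.59 ± 0.12 (adjusted p = 0.0290). DNA methylation was not measured in these files.

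The locus column of the files puts 22 of the 38 genes at a span that another symbol shares, 16 of them with a gene longer than a microRNA or small nucleolar RNA, so that the 38 lie at 36 distinct loci. Mest shares its span with Copg2, Kcnq1 with Kcnq1ot1, Igf2r with Airn and Mas1, Igf2 and Peg3 with their antisense genes, Snrpn with Snurf, Gnas with Nespas, and Zrsr1, Mcts2, Nap1l5 and Nnat with the genes they lie in or beside (Commd1, H13, Herc3 and Blcap). Values within such a span went different ways in several cases. With RA Mest rose and Copg2 did not, and Mcts2 fell in both genotypes while H13 rose (1.05 ± 0.14 in GLP 3A and 1.21 ± 0.14 in wild type cells). Of 71 short RNA symbols at these loci, 50 were listed at 0 in all 8 libraries. Leaving out the genes with a shared span, 1 of the 7 calls between untreated genotypes was left (Grb10), and 6 of the 12 with RA. Of the untreated calls left out, Mest, Peg3 and Zrsr1 share their span with a longer gene. H19, Sfmbt2 and Mirg share theirs with short RNA symbols only.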

How the data were processed

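RNA-seq of the 8 libraries (4 groups of 2) was used; 32 chromatin and input samples of the series were not analysed here. The authors' deposited files give RPKM per gene symbol with an mm9 locus, 1 file per library, made per the submitters' processing notes with Bowtie 0.12.7, SAMtools, TopHat and Cufflinks. The role of each tool, the annotation and whether strand or overlapping genes were handled in counting are not stated there. RPKM hold no counts, so the absolute depth and the counting error are unknown. Relative depth came from the steps between the lowest values (under 0.15 RPKM, with a tolerance of 1.5%) and is rough; it did not recover whole reads, so no count test was run.

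Symbols in all files were joined, values taken as log2(RPKM + 1), and the 13198 genes that reached 1 RPKM in 2 or more libraries tested with limma 3.58.1 in R 4.3.3, with 4 group means, an intensity trend and Benjamini-Hochberg adjustment over all of them. Standard errors rest on 4 residual degrees of freedom. The 5 contrasts were the genotype difference in each state, the RA difference in each genotype, and the difference of the RA responses. The code was checked on simulated data. The comparisons share libraries: each group enters more than 1 of them.

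The 38 genes, the other gene lists and the marker lists were chosen with earlier results of these data known. Genes called between genotypes or in the difference of responses, and the 10 with the largest RA difference in wild type cells, are given with every library's RPKM, the others by ranges, counts or differences. At most 3 genes of each other list are named, those with the smallest adjusted p between genotypes, beside partners at shared loci. Zfp57 and Ins2 are named as well, both chosen after their values were seen. Promoter windows are RefSeq's (GRCm38.p6) and were searched by letters. Printed windows are those with the most matches of named genes for which a germline methylated region is known. Genes were chosen by name, so a printed window need not lie in that region. Alternatives were another pseudocount, filter, scaling, prior or set of libraries, a replicate block, 2 chromosomes or shared loci left out, and each library left out in turn. Python 3.11.15 with pandas 2.3.3, numpy 2.4.6 and matplotlib 3.10.9 was used for tables and figures.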

Additional observations from a re-analysis of the deposited data

Results flagged for a closer look

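The difference between the RA response of GLP 3A cells and that of wild type cells was itself past the threshold for 3 imprinted genes, which is why they are given here. For Mest it was -1.25 on the log2 scale (adjusted p = 0.0461), for Zim1 -1.35 (adjusted p = 0.0192) and for Phlda2 1.68 (adjusted p = 0.0387), with limma and adjustment over 13198 genes. The Zim1 values were 1.06 and 1.16 RPKM in GLP 3A cells with RA, against 4.65 and 4.30 RPKM in wild type cells with RA, and at most 0.22 RPKM in all 4 untreated libraries. Zim1 thus passed the filter only through libraries with RA. All 3 calls were lost without any 1 of the 4 untreated or the 2 wild type RA libraries, with adjusted p up to 0.215 for Mest, 0.144 for Zim1 and 0.200 for Phlda2.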

How the results depend on the processing

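Counts of called imprinted genes (7 and 12 between genotypes, untreated and with RA, 26 and 25 for RA in GLP 3A and wild type cells, 3 for the difference of responses) stayed within 1.5 times in 8, 7, 9, 9 and 6 of 10 alternatives (9 for the last) other than leaving out a library, and in 2, 1, 8, 8 and 0 of the 8 fits that left out 1 library. No difference of a single gene that was called changed sign. Fitting only the 4 libraries compared gave 17 calls between untreated genotypes, where 3669 of 11686 tested genes were called. With RA it gave 0, where 24 of 12438 were. Without genes of chromosomes 1 and 11 there were 7 with RA. With genes at shared loci left out there were 1, 6, 11 and 13 calls in the first 4 comparisons, since fewer genes were counted. For the difference of responses a pseudocount of 0.1, no filter on low values and quantile normalization each gave 1. Leaving out 1 library at a time changed the number of calls in the 5 comparisons, over all tested genes as well. Among all genes called between untreated genotypes 64.4% were higher in GLP 3A cells, against 54.0% under either other scaling, where the imprinted genes split 5 higher and 3 lower (median-of-ratios) or 5 and 2 (quantile). The labels do not say what a replicate number marks, but deviations of same-numbered libraries correlated at 0.17 to 0.36, replicate 2 was the shallower in every group, and Ttr, an endoderm marker, had 10.01 to 32.8 RPKM in replicate 2 against 0.0562 to 1.05 RPKM in replicate 1. The replicate block gave 8, 12, 27, 27 and 3 calls; with it Magel2 between genotypes with RA (adjusted p = 0.0529) and Mest in the difference of responses (adjusted p = 0.0502) were not called, and 6 others were, Snrpn untreated and Asb4 with RA among them. Of the single gene values under alternatives, 2510 kept their side of the threshold, 58 passed it newly and 146 no longer passed. The causes were not tested. RPKM without counts and 2 libraries per group limit the precision, most for the genes near 1 RPKM.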
